A study of Homo sapiens with 24 samples.

Results

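The comparison described here set the transcriptional response of Klotho-expressing cells to FGF23 after 24 h against the response after 1 h. It used 12 of the 24 libraries of the study, chosen by their labels. These were 3 libraries of HEK293 cells of genotype Kl given recombinant human FGF23 at 10 nM for 24 h, 3 Kl controls of the 24 h arm, 3 libraries of Kl cells given FGF23 at 0.5 nM for 1 h and 3 Kl controls of the 1 h arm. HEK293 is a line derived from human embryonic kidney, and all cells were grown in the same serum-containing medium. The other 12 libraries repeat the 4 groups in cells of genotype WT, which had at most 14 KL counts per library, against 16072 to 54039 in the Kl libraries. The labels do not say which promoter drives KL, whether the Kl line is 1 clone, what the controls received, or whether libraries of a group came from separate cultures, so p-values measure the spread between these libraries, which may be technical. The dose rose together with the time, and their effects cannot be told apart. Each value called the late-minus-early difference below is the log2 effect of FGF23 at 24 h (FGF23 over control) minus the log2 effect at 1 h. A positive difference means a higher effect at 24 h, and a negative one a lower effect at 24 h. Genes with an adjusted p under 0.05 are described as called.

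FGF23 is a hormone made by bone that signals to the kidney, where Klotho acts as the co-receptor that lets it bind FGF receptors. The activated receptor recruits adaptors such as FRS2 and GRB2 and switches on the RAS and ERK kinase cascade. ERK phosphorylates factors that already sit on promoters, such as the ETS partners of SRF at CArG boxes, and so starts immediate-early genes within minutes, while phosphatases of the DUSP family and the Sprouty proteins later restrain the cascade. ATF4 is a transcription factor of the amino acid and stress response, whose targets import amino acids, make serine and glycine and charge tRNAs.

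The promoter letters of 4 genes are shown because these genes stand for both directions of the difference: EGR1 and EGR2, whose FGF23 effect was lower at 24 h than at 1 h, and CHAC1 and FUT1, whose effect was higher at 24 h. The windows are the 250 bases before a RefSeq transcription start in GRCh38.p14, read in the direction of the gene, at chr5:138465229-138465478 on the plus strand for EGR1, at chr10:62816367-62816616 on the minus strand for EGR2 (1 of 3 listed starts, the others of which hold no CArG box), at chr15:40953221-40953470 on the plus strand for CHAC1 and at chr19:48755359-48755608 on the minus strand for FUT1 (1 of 2 listed starts, the other of which holds no such site). Capitals mark CArG boxes in EGR1 and EGR2 and the ATF4 sites in CHAC1 and FUT1.
EGR1: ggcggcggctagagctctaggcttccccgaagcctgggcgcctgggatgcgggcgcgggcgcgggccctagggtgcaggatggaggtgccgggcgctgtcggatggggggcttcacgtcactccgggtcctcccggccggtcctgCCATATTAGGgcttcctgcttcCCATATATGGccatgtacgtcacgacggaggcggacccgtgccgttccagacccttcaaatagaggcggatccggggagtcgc
EGR2: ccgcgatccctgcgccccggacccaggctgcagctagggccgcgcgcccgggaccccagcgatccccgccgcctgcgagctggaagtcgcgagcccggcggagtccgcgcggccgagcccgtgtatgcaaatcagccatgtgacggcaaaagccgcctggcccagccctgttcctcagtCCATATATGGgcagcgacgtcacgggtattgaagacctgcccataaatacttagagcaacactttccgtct
CHAC1: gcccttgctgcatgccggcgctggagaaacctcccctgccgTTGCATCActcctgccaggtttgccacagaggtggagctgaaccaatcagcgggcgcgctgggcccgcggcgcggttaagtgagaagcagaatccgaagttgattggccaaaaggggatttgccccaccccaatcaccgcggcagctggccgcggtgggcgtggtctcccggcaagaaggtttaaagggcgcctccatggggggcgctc
FUT1: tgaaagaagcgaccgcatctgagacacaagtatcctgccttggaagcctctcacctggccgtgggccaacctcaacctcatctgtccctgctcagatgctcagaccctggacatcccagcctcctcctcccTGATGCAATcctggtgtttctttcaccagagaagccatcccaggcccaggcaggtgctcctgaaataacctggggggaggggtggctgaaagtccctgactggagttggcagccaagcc

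The 12 Kl libraries held 18522517 to 29116838 counts after 24 h of FGF23, 16207000 to 17895444 in the 24 h controls, 16620917 to 29399704 after 1 h of FGF23 and 15849564 to 17915715 in the 1 h controls. Libraries of a group correlated at 0.9859 or more in log2 CPM, the counts per 1e6 counts of a library after TMM scaling, and none were identical. The libraries treated for 1 h varied more among themselves than the other groups: the median SD per gene in log2 CPM was 0.201, against 0.093 for FGF23 24 h, 0.092 for the 24 h controls and 0.111 for the 1 h controls. Library 1 of FGF23 1 h stood apart on the second principal component, at 31.8, whereas the other 11 lay between -19.2 and 10.3. The main counts of called genes are therefore given with and without it. Library 3 of the same group stood apart on the fourth component, at 19.6 against -8.9 to 6.5 for the other 11. It also had the highest share of mitochondrial counts, 8.27%. That share was 5.45 to 6.31% in FGF23 24 h, 5.69 to 6.05% in the 24 h controls, 6.51 and 6.61% in the other 2 libraries of FGF23 1 h and 6.06 to 7.62% in the 1 h controls. The part of these shares in the results was not tested. Of the markers of the label, KRT8 (5581 to 12477 counts), KRT18 (1057 to 3684) and EPCAM (1010 to 2628) were present in every library, while PAX8 had at most 5 counts. UMOD, AQP2 and SLC12A3, which define distal nephron segments, and the proximal tubule transporters SLC22A6 and SLC22A8 had no counts. Only 6 of the 8 proximal tubule and 6 of the 7 distal markers were listed at all in the deposited data, SLC22A6 and SLC22A8 not among them. The proximal tubule marker LRP2 had 290 to 668 counts, AQP1 11 to 46 and CUBN 6 to 22. Of the neuronal and adrenal markers, NEFL (2329 to 5624 counts) and UCHL1 (4720 to 12998) were present. STMN2 had 0 counts, TH at most 4, DBH at most 8 and CHGA 8 to 24. In the difference edgeR called none of the marker genes tested, whereas KRT18 was called without library 1 of FGF23 1 h (0.56, adjusted p = 0.00116) and in limma voom (0.48, adjusted p = 0.026). The summed CPM of the epithelial list was 643 to 699 after FGF23 24 h, 546 to 578 in its controls, 579 to 690 after FGF23 1 h and 560 to 597 in its controls, and its part in the results was not tested. In bulk RNA, fewer cells making a transcript and less transcript per cell cannot be told apart.

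The late-minus-early difference was called for 246 of 16920 genes (1.45%), at a Benjamini-Hochberg adjusted p under 0.05 in edgeR's quasi-likelihood test. The effect was higher at 24 h in 149 of them (0.881%) and lower in 97 (0.573%). Without library 1 of FGF23 1 h the count was 551 (3.19%), with 290 higher (1.68%) and 261 lower (1.51%), and 236 of the 246 genes were called in the same direction. The count was 813 without library 2 of FGF23 1 h, 100 and 113 without libraries 2 and 3 of FGF23 24 h, 116, 111 and 111 without controls 1, 2 and 3 of the 24 h arm, and 117 and 107 without controls 1 and 2 of the 1 h arm. A limma voom fit with a spread for each group gave 379 (2.24%), 189 higher and 190 lower (1.12% each), and a fit of all 24 libraries gave 1039 (5.84%), 462 higher (2.6%) and 577 lower (3.24%). All 246 genes were called in the fit of 24 libraries, and 228 in voom in the same direction. Of the 246 genes, 94 were called in all 12 fits that left out 1 library. Of the 149 genes, 3 passed the expression filter through 1 group alone. The absolute difference reached 1 or more on the log2 scale in 79 of the called genes and 2 or more in 23. The separate effects gave 635 called genes at 24 h (3.75%), of which 446 (2.64%) were higher with FGF23, and 278 at 1 h (1.64%), of which 259 (1.53%) were higher (426 called with the replicate number as a block within each line and time). With that block the difference was called in 363 genes, 172 higher and 191 lower. Across genes, which are not independent replicates, the effects at the 2 times correlated with r = 0.17.

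The called differences fell into a few response shapes, counted in the main edgeR fit. The shapes rest on the calls at each time, which changed with the fit. The 635 calls at 24 h became 2826 in limma voom and 3128 with the 6 libraries of that time.  Without library 1 of FGF23 1 h they became 2043. The 278 calls at 1 h became 165 in limma voom, 90 with the 6 libraries of that time and 436 without library 1 of FGF23 1 h. Of the 149 higher ones, 135 were called higher with FGF23 at 24 h and not called at 1 h, and 3 (SPRY4, TPBG and XBP1) were called higher at both times and more so at 24 h. Of the 97 lower ones, 40 were called higher at 1 h and not at 24 h, 13 were called higher at both times and less so at 24 h, and 32 were called lower at 24 h and not called at 1 h. In 2 genes, BTG2 and SIK1B, FGF23 went with a higher level at 1 h and a lower one at 24 h. A call at 1 time without one at the other did not by itself mean a difference: of 565 genes called at 24 h and not at 1 h, the difference was called in 167, and of 208 called at 1 h and not at 24 h, in 43. Among the 68 genes called higher at both times the difference was not called in 52.

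**Figure D1:**
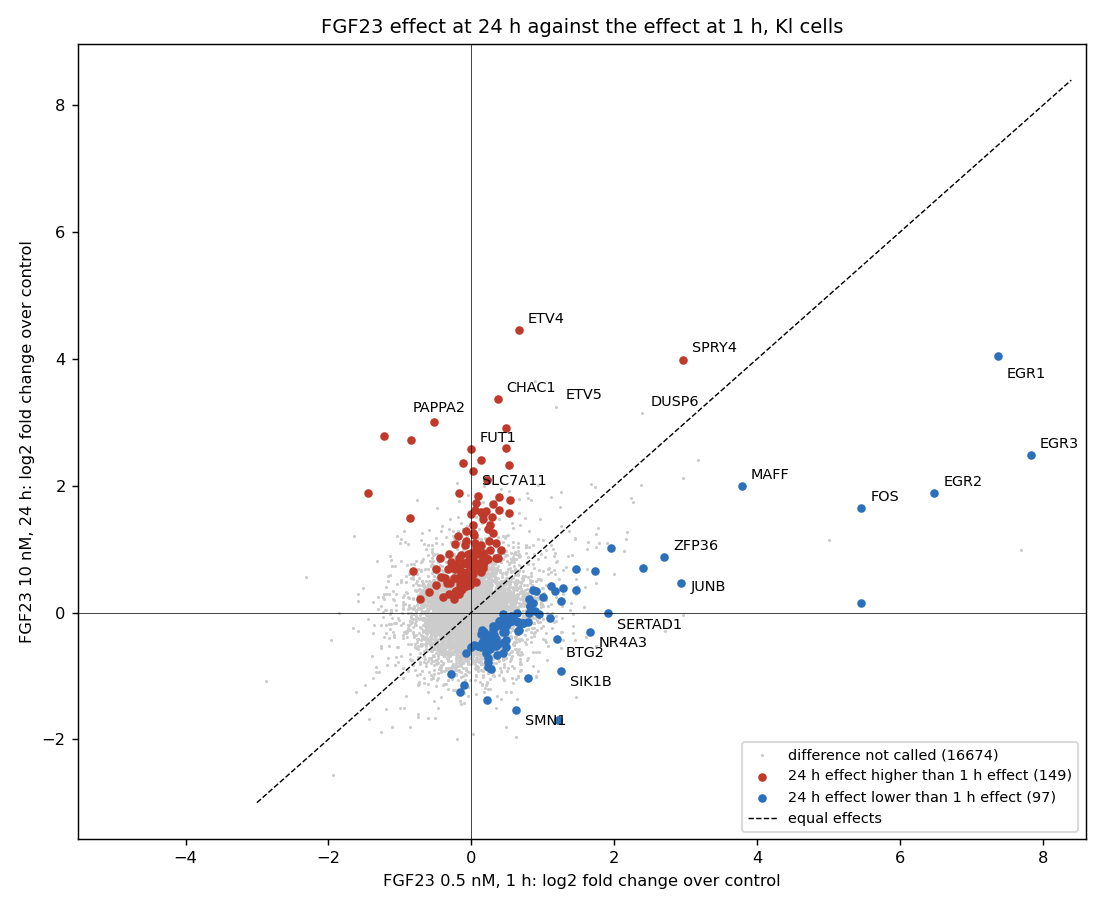
Each point is 1 of 16920 genes, placed by its log2 effect of FGF23 at 1 h (x axis) and at 24 h (y axis) in Kl cells. Red marks the 149 genes whose effect was higher at 24 h and blue the 97 genes whose effect was lower; the dashed line marks equal effects. EGR1 lies far to the right below the line, and ETV4 and CHAC1 lie high near the left.

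The EGR factors, zinc-finger transcription factors of the immediate-early class, had the lowest median difference of the 27 lists examined. Of the 16920 genes tested, 0.881% were called higher and 0.573% lower, which is the background for the calls in this and the following lists. EGR1 (chr5:138465490-138469315 in the GRCh38 coordinates of the files) stood at 90.5, 90.7 and 91.5 CPM after FGF23 24 h and at 6.08, 4.99 and 5.45 CPM in the 24 h controls, and at 1032, 811 and 570 CPM after FGF23 1 h and at 5.82, 4.66 and 4.15 CPM in the 1 h controls. The treated libraries were above their controls at both times without overlap, and the 24 h libraries lay far below the 1 h ones. The log2 effect was 4.04 ± 0.187 (SE) at 24 h and 7.37 ± 0.203 at 1 h, a difference of -3.33 ± 0.275 (adjusted p = 3.24e-06). EGR2 had 3.83, 3.14 and 3.12 CPM after FGF23 24 h and 1.4, 0.492 and 0.778 CPM in the 24 h controls, against 66.7, 58.2 and 37.1 CPM after FGF23 1 h and 0.49, 0.932 and 0.346 CPM in the 1 h controls. Its difference was -4.61 ± 0.567 (adjusted p = 0.00017). EGR1 and EGR2 were called in all 12 fits that left out 1 library. EGR3 had 4.85, 5.96 and 4.91 CPM after FGF23 24 h and 0.949, 1.11 and 0.778 CPM in its controls, against 247, 248 and 89 CPM after FGF23 1 h and 1.1, 0.658 and 0.807 CPM in its controls. The third library at 1 h was the low one, and the difference of -5.35 ± 1.05 (adjusted p = 0.0396) held in 2 of the 12 fits, with an adjusted p of 0.134 without library 1 of FGF23 1 h. In all, 3 of 6 tested EGR and NAB genes were called lower (2 without that library), and the median difference of the 6 was -3.97 (-3.33 without EGR4, which passed the filter through the FGF23 1 h libraries alone), against -0.0 over all genes.

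The AP-1 factors, dimers of FOS and JUN proteins, and the small MAF factors followed with 8 of 12 genes called lower (7 without library 1 of FGF23 1 h, and 4 without control library 1 of the 24 h arm) and a median difference of -0.90. FOS (chr14:75278774-75282230) had 4.04, 4.85 and 5.49 CPM after FGF23 24 h and 1.84, 0.923 and 1.8 CPM in the 24 h controls. At 1 h the levels were 66.8, 74.3 and 38.0 CPM after FGF23 1 h and 1.65, 0.877 and 1.56 CPM in the 1 h controls. It was above its controls at both times, and its difference was -3.81 ± 0.476 (adjusted p = 0.000223). JUNB had 11.4, 9.07 and 9.15 CPM after FGF23 24 h and 5.8, 7.76 and 7.9 CPM in the 24 h controls, against 49.8, 33.7 and 23.4 CPM after FGF23 1 h and 4.35, 4.55 and 4.9 CPM in the 1 h controls. The groups were also separate at 24 h, but there the effect of 0.46 was not called (adjusted p = 0.31), and the difference was -2.48 ± 0.316 (adjusted p = 0.000232). JUN had 194, 171 and 171 CPM after FGF23 24 h and 199, 199 and 205 CPM in the 24 h controls. At 1 h the levels were 433, 365 and 431 CPM after FGF23 1 h and 244, 218 and 278 CPM in the 1 h controls. JUN was above its controls in every library at 1 h and below them in every library at 24 h, where its effect was not called, with a difference of -0.90 ± 0.13 (adjusted p = 0.000885). MAFF, a small MAF protein, had an effect of 1.99 ± 0.224 at 24 h and 3.79 ± 0.228 at 1 h, a difference of -1.80 ± 0.336 (adjusted p = 0.00908), which held in 11 of the 12 fits. ATF3, which pairs with JUN proteins and is also a target of ATF4, had a difference of -0.89 ± 0.146 (adjusted p = 0.00305). FOSB was called at -5.31 (adjusted p = 0.038), in 2 of the 12 fits. FOSL1 was among the 4 members not called, with an effect of 1.74 at 24 h and 2.27 at 1 h.

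Other immediate-early genes gave 7 of 19 called lower (8 without library 1 of FGF23 1 h, 5 to 10 over the fits leaving out 1 library), with a median of -0.78. The orphan nuclear receptors NR4A3 and NR4A1 had differences of -1.96 ± 0.338 and -1.71 ± 0.267 (adjusted p = 0.00476 and 0.00195). SRF, the factor that binds CArG boxes, had 124, 116 and 117 CPM after FGF23 24 h and 134, 125 and 136 CPM in the 24 h controls, against 230, 156 and 167 CPM after FGF23 1 h and 110, 103 and 106 CPM in the 1 h controls. SRF was above its controls at 1 h in every library and below them at 24 h in every library, but the effect of -0.15 at 24 h was not called, and the difference was -0.94 ± 0.155 (adjusted p = 0.00303). RHOB, a small GTPase of actin regulation, had a difference of -0.80 ± 0.131 (adjusted p = 0.00303). PTGS2, the inducible cyclooxygenase, was called higher with FGF23 at both times, by 2.40 ± 0.313 at 24 h and 3.18 ± 0.309 at 1 h, and its difference of -0.78 ± 0.467 was not called (adjusted p = 0.43).

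Genes that act on messenger stability and on proliferation gave 2 of 8 called lower (3 without library 1 of FGF23 1 h) with a median of -0.38. ZFP36, which destabilises messengers with AU-rich elements, had 11.7, 11.4 and 11.2 CPM after FGF23 24 h and 7.59, 5.23 and 5.69 CPM in the 24 h controls. At 1 h the levels were 40.1, 36.9 and 37.1 CPM after FGF23 1 h and 5.57, 5.97 and 5.94 CPM in the 1 h controls. ZFP36 was higher than its controls at both times, with a difference of -1.82 ± 0.178 (adjusted p = 1.49e-05). BTG2 (chr1:203305491-203309602), an antiproliferative gene that promotes removal of poly(A) tails, had 67.2, 60.8 and 63.1 CPM after FGF23 24 h and 82.8, 83.6 and 89.3 CPM in the 24 h controls. At 1 h the levels were 197, 212 and 202 CPM after FGF23 1 h and 87.2, 87.8 and 90.3 CPM in the 1 h controls. The groups did not overlap at either time, and the direction turned round. The effect was -0.42 ± 0.0718 at 24 h (adjusted p = 0.00179) and 1.20 ± 0.0713 at 1 h (adjusted p = 9.03e-09), a difference of -1.63 ± 0.101 (adjusted p = 1.32e-07). SIK1B, a near-identical copy of the salt-inducible kinase gene SIK1, changed in the same way, with effects of -0.93 ± 0.229 at 24 h and 1.25 ± 0.226 at 1 h and a difference of -2.17 ± 0.322 (adjusted p = 0.00116). SIK1 itself had effects of -1.03 ± 0.237 at 24 h (adjusted p = 0.0196) and 0.79 ± 0.253 at 1 h. The second was not called (adjusted p = 0.156), and the difference was -1.82 ± 0.346 (adjusted p = 0.0109). How the counting split reads between the 2 copies is not given in the sources used here.

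**Figure D2:**
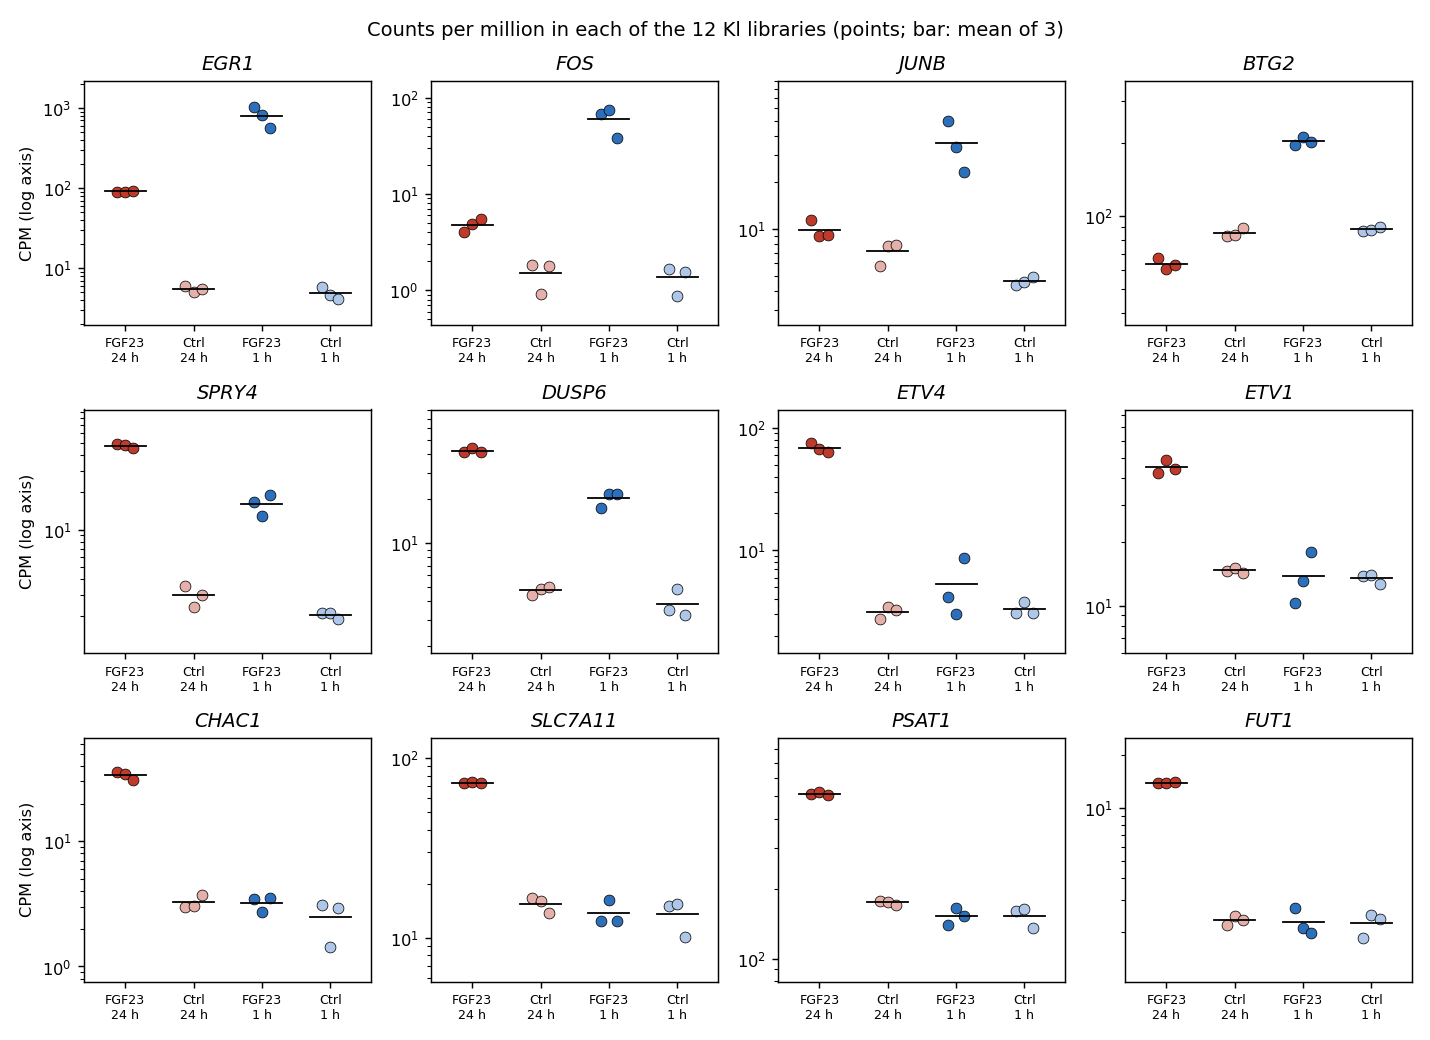
CPM on a log axis of 12 genes in the 4 Kl groups, ordered FGF23 24 h, control 24 h, FGF23 1 h and control 1 h. Points are libraries and bars the mean of 3. EGR1, FOS, JUNB and BTG2 are highest after 1 h of FGF23, DUSP6 and SPRY4 are high in both treated groups, and ETV4, ETV1, CHAC1, SLC7A11, PSAT1 and FUT1 are high after 24 h of FGF23.

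The DUSP phosphatases, which remove phosphate from MAP kinases, were mixed: 3 of 10 were called lower (1 to 4 over the 12 fits), and the median difference was -0.39. DUSP1, DUSP5 and DUSP8 were the 3. DUSP1 had 32.7, 28.5 and 27.9 CPM after FGF23 24 h and 26.6, 26.0 and 25.7 CPM in the 24 h controls, against 75.3, 70.7 and 62.2 CPM after FGF23 1 h and 27.8, 27.5 and 31.7 CPM in the 1 h controls. Its difference was -1.08 ± 0.138 (adjusted p = 0.000251), in all 12 fits. DUSP5 (-0.94, adjusted p = 0.0298) was called in 4 of the 12 fits and DUSP8 (-0.72, adjusted p = 0.0447) in 2. DUSP6, which acts on ERK in the cytoplasm, lay on the other side of 0. It had 41.6, 44.3 and 41.2 CPM after FGF23 24 h and 4.41, 4.86 and 5.03 CPM in the 24 h controls, against 17.3, 21.4 and 21.6 CPM after FGF23 1 h and 3.49, 4.82 and 3.23 CPM in the 1 h controls. Its effects of 3.15 ± 0.137 at 24 h and 2.39 ± 0.142 at 1 h were both called, and the difference of 0.77 ± 0.201 was not (adjusted p = 0.0719). It was called at 0.0468 with the replicate number as a block within line and time, at 0.0184 in DESeq2 and at 0.0365 without library 1 of FGF23 1 h. DUSP4 was called higher at both times by nearly equal amounts, 1.06 at 24 h and 1.12 at 1 h.

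Inhibitors that act nearer the receptor, of the Sprouty and SPRED families among others, gave 2 of 16 called higher (0 to 3 over the 12 fits) and none lower, with a median of 0.10. SPRY4 had 49.6, 47.9 and 45.4 CPM after FGF23 24 h and 3.52, 2.4 and 2.99 CPM in the 24 h controls, against 16.7, 12.8 and 19.1 CPM after FGF23 1 h and 2.14, 2.14 and 1.9 CPM in the 1 h controls. SPRY4 was above its controls at both times, and the 24 h libraries were above the 1 h ones in each case. Its difference of 1.03 ± 0.249 was near the threshold (adjusted p = 0.0486) and held in 3 of the 12 fits, with an adjusted p of up to 0.173 when control library 2 of the 1 h arm was left out. SPRED2 also lay near it (1.04 ± 0.25, adjusted p = 0.048), in 3 of the 12 fits and with an adjusted p of 0.215 without library 1 of FGF23 1 h and of 0.073 with the replicate block within line and time. SPRY2 had effects of 1.29 at 24 h and 1.37 at 1 h, and SPRED1 of 1.09 and 0.66, with no difference called.

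Among the ETS factors, 2 of 12 were called higher (2 to 3 over the 12 fits) with a median of 0.32, and both belong to the PEA3 subfamily, which is transcribed downstream of FGF signals in many tissues. ETV4 (chr17:43527844-43579620) had 74.7, 67.4 and 64.0 CPM after FGF23 24 h and 2.73, 3.45 and 3.23 CPM in the 24 h controls, against 4.14, 3.0 and 8.67 CPM after FGF23 1 h and 3.06, 3.78 and 3.11 CPM in the 1 h controls. Only the 24 h libraries were clear of their controls, and the third library at 1 h was the highest of its group. The effect was 4.45 ± 0.271 at 24 h and 0.67 ± 0.299 at 1 h (adjusted p = 0.344), a difference of 3.78 ± 0.415 (adjusted p = 0.000112). ETV1 had 42.2, 48.9 and 44.2 CPM after FGF23 24 h and 14.6, 15.1 and 14.3 CPM in the 24 h controls, against 10.3, 13.1 and 18.0 CPM after FGF23 1 h and 13.8, 14 and 12.6 CPM in the 1 h controls. At 1 h its libraries lay on both sides of the controls, and the difference was 1.57 ± 0.207 (adjusted p = 0.000322). ETV5 had 56.9, 64.3 and 65.2 CPM after FGF23 24 h and 5.19, 7.69 and 6.7 CPM in the 24 h controls, against 7.92, 7.29 and 24.3 CPM after FGF23 1 h and 6.67, 6.85 and 3.98 CPM in the 1 h controls. The third library at 1 h was far above the other 2, and the difference of 2.07 ± 0.636 was not called (adjusted p = 0.18, and 3.54e-06 without that library).

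The calls among genes further downstream of ERK are set beside the share called over all genes tested, 1.45%. Of 19 later ERK targets, such as proteases, ephrin receptors and growth factors, 7 were called higher with FGF23 at 24 h and 5 at 1 h, and none had a called difference in edgeR. This compares with 6 at an unadjusted p under 0.05 and 1 called in DESeq2 and 1 in limma voom. Over all 16920 genes tested, 2621 passed an unadjusted p under 0.05 in edgeR for the same difference. HMGA2 was called higher without library 1 of FGF23 1 h and in limma voom. Of 19 targets of SRF and YAP, 2 were called lower and 1 higher (4 lower and 2 higher without library 1 of FGF23 1 h). CYR61, a matricellular protein, had a difference of -1.11 ± 0.192 (adjusted p = 0.00486), and ACTG1, cytoplasmic gamma-actin, of -0.46 ± 0.103 (adjusted p = 0.0337, in 3 of the 12 fits). CALD1, the actin-binding caldesmon, had a difference of 0.62 ± 0.129 (adjusted p = 0.0225, in 5 of the 12 fits). CTGF, named here after its values were seen, was called higher at both times, by 1.81 ± 0.148 at 24 h and 2.23 ± 0.142 at 1 h.

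Of the regulators of the ATF4 response, 9 of 15 were called higher and none lower, with a median of 0.78, and 9 were also called without library 1 of FGF23 1 h. FGF21 passed the expression filter through the FGF23 24 h libraries alone, and without it the count was 8 and the median 0.74. At 24 h 11 of the 15, FGF21 included, were called higher with FGF23, and at 1 h 1. ATF4 (chr22:39519695-39522685) had 671, 669 and 652 CPM after FGF23 24 h and 273, 266 and 265 CPM in the 24 h controls, against 318, 285 and 293 CPM after FGF23 1 h and 247, 257 and 251 CPM in the 1 h controls. The treated libraries were above their controls at both times, by 1.31 ± 0.066 at 24 h and by 0.24 ± 0.0652 at 1 h, the second of which was not called (adjusted p = 0.0748). The difference was 1.07 ± 0.0923 (adjusted p = 4.2e-06). CHAC1, which degrades glutathione, had 35.5, 34.7 and 30.6 CPM after FGF23 24 h and 3.01, 3.02 and 3.71 CPM in the 24 h controls, against 3.46, 2.73 and 3.51 CPM after FGF23 1 h and 3.12, 1.42 and 2.94 CPM in the 1 h controls. Only its 24 h treated libraries stood out, and the difference was 3.0 ± 0.294 (adjusted p = 1.49e-05). TRIB3, a pseudokinase that binds ATF4, had a difference of 1.13 ± 0.116 (adjusted p = 2.48e-05), STC2, a secreted glycoprotein, of 1.38 ± 0.152 (adjusted p = 5.73e-05), and the stress factor NUPR1 of 1.87 ± 0.335 (adjusted p = 0.00659). The controls moved too for several of these genes: 7 of the 15 were called higher in 24 h than in 1 h controls, among them TRIB3 (0.65, adjusted p = 0.000677), STC2 (0.94, adjusted p = 0.000278) and NUPR1 (1.47, adjusted p = 0.00704). The part of that change in the difference was not tested. ATF4 and CHAC1 were not among the 7, with control changes of 0.09 and 0.39. DDIT3, which encodes CHOP, had effects of 0.55 at 24 h and 0.50 at 1 h, neither called, and PPP1R15A, the phosphatase subunit that reverses the stress block on translation, had a difference of -0.23.

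The enzymes, carriers and tRNA synthetases that ATF4 is known to act on lay on the same side. Of 12 genes of serine, one-carbon and amino acid synthesis, 7 were called higher and 1 lower, with a median of 0.75. PSAT1 (chr9:78297143-78330093), of the serine pathway, had 511, 522 and 508 CPM after FGF23 24 h and 177, 176 and 171 CPM in the 24 h controls, against 140, 166 and 152 CPM after FGF23 1 h and 160, 164 and 136 CPM in the 1 h controls. Its libraries overlapped the controls at 1 h and were all above them at 24 h, and the difference was 1.56 ± 0.115 (adjusted p = 1.07e-06). MTHFD2, of mitochondrial one-carbon metabolism, and CTH, which makes cysteine, each had a difference of 1.22 (adjusted p = 1.49e-05 and 0.000872), and PSPH, the last step of serine synthesis, of 0.95 ± 0.136 (adjusted p = 0.000874). ALDH18A1, of proline synthesis, was the member called lower, at -0.42 (adjusted p = 0.0444, in 3 of the 12 fits). ASNS, asparagine synthetase, was called higher at 24 h by 1.57, and its difference of 0.90 ± 0.318 was not called (adjusted p = 0.197).

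Of 11 amino acid transporters, 9 were called higher (7 to 9 over the 12 fits) with a median of 0.92, and the 10 members other than SLC7A3 were all called higher with FGF23 at 24 h. SLC7A11 (chr4:138164097-138242349), the cystine and glutamate exchanger, had 72.6, 73.4 and 73.3 CPM after FGF23 24 h and 16.6, 16.1 and 13.8 CPM in the 24 h controls, against 12.5, 16.2 and 12.4 CPM after FGF23 1 h and 15.1, 15.5 and 10.1 CPM in the 1 h controls. The 3 treated libraries at 24 h agreed closely and were the only ones away from the rest, with a difference of 2.22 ± 0.2 (adjusted p = 6.64e-06). SLC6A9, a glycine transporter, had a difference of 1.75 ± 0.214, SLC7A5, the large neutral amino acid carrier, of 1.23 ± 0.142, SLC38A1, a glutamine transporter, of 1.03 ± 0.11, and SLC1A4 of 0.92 ± 0.101 (adjusted p at most 0.00016). The members not called were SLC1A5 and the cationic amino acid carrier SLC7A3. SLC7A3 passed the expression filter through the FGF23 24 h libraries alone, and the median without it was 0.97.

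Of 20 cytosolic aminoacyl-tRNA synthetase genes, 10 were called higher and none lower, with a median of 0.52, and the 12 fits gave 10 to 11. CARS, the cysteine enzyme, had 102, 105 and 108 CPM after FGF23 24 h and 38.8, 41.2 and 40.9 CPM in the 24 h controls, against 44.8, 50 and 48.0 CPM after FGF23 1 h and 48.4, 45.9 and 46.7 CPM in the 1 h controls. The 24 h treated libraries were the only high ones, with a difference of 1.36 ± 0.107 (adjusted p = 1.96e-06). YARS, GARS and MARS, which charge tyrosine, glycine and methionine tRNAs, had differences of 1.19 ± 0.0991, 1.04 ± 0.104 and 0.94 ± 0.117 (adjusted p = 3.24e-06, 1.89e-05 and 0.00019). The other 10 members lay between -0.51 for FARSA and 0.38 for AARS. Folding genes of the endoplasmic reticulum gave 2 of 14 called higher (0 to 3 over the 12 fits), with a median of -0.02. One was HERPUD1, of the degradation pathway of that compartment (0.68 ± 0.135, adjusted p = 0.0153, in 7 of the 12 fits). The other was XBP1, a transcription factor of the unfolded protein response (0.49 ± 0.109, adjusted p = 0.0319, in 4 of the 12 fits). HSPA5, the main chaperone there, had a difference of -0.15.

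**Figure D3:**
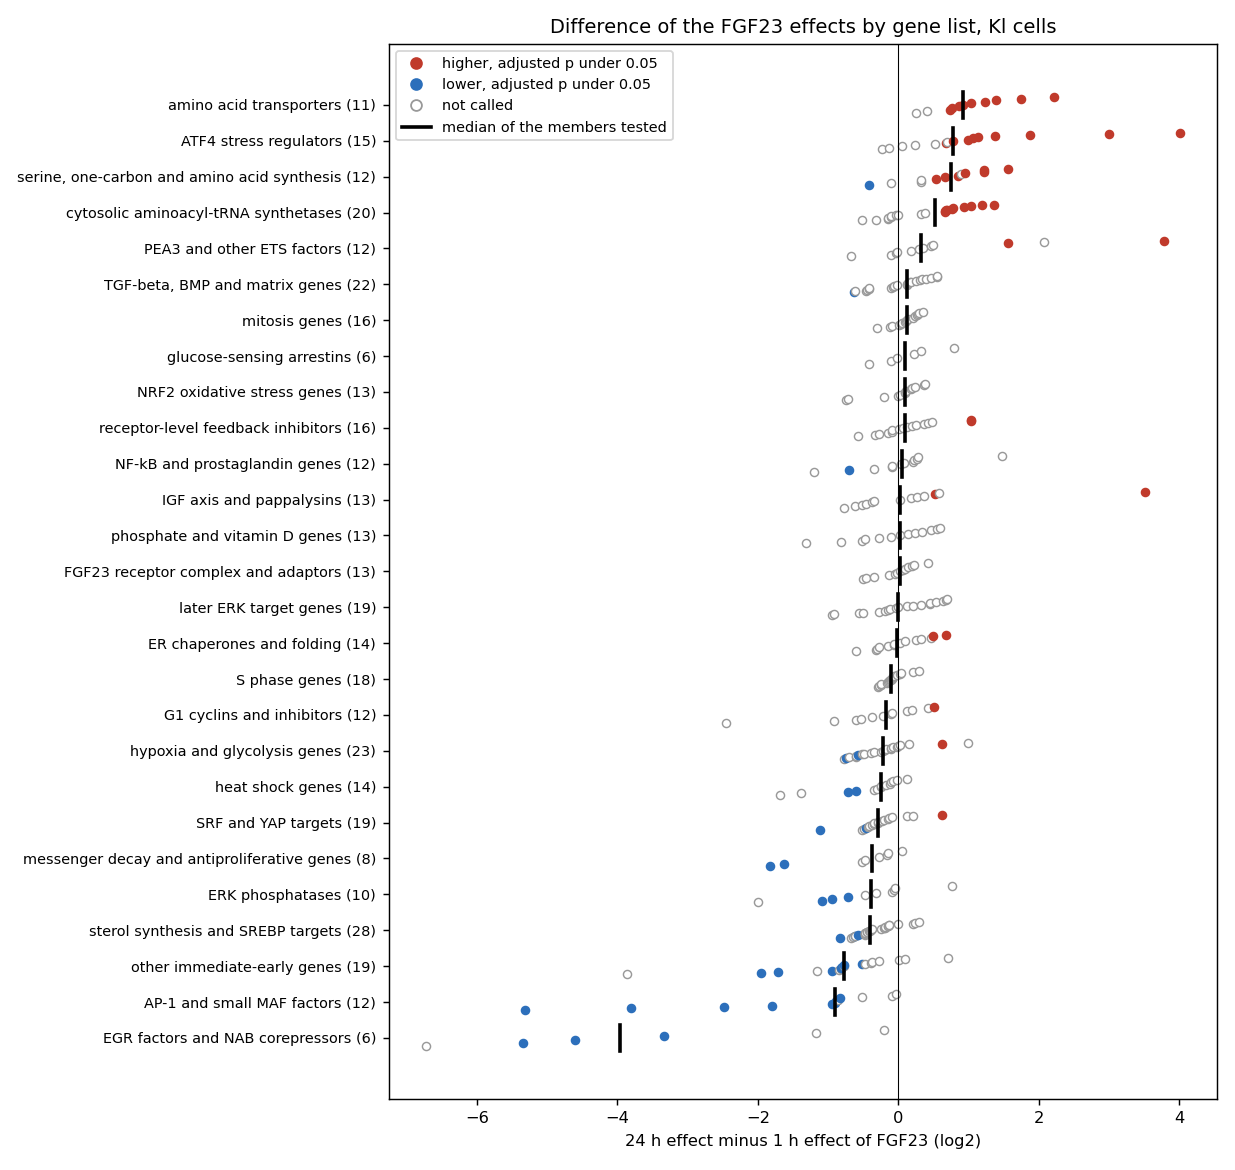
The late-minus-early difference (log2, x axis) of every tested member of 27 gene lists in Kl cells. Dots are genes, filled red where called higher, filled blue where called lower and open where not called, and ticks are list medians. EGR and AP-1 genes extend far to the left, with medians of -3.97 and -0.90, and ATF4 regulators, amino acid synthesis, transporters and tRNA synthetases lie to the right, with medians of 0.52 to 0.92. EGR4, FGF21, SLC7A3 and PAPPA2, which passed the expression filter through 1 group alone, are included. Without them the medians were -3.33 for EGR genes, 0.74 for ATF4 regulators and 0.97 for transporters.

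High differences were also found outside the lists described so far. FUT1, the fucosyltransferase of the H antigen, had 13.8, 13.8 and 14.1 CPM after FGF23 24 h and 2.18, 2.46 and 2.33 CPM in the 24 h controls, against 2.72, 2.09 and 1.97 CPM after FGF23 1 h and 1.84, 2.47 and 2.36 CPM in the 1 h controls. Its difference was 2.59 ± 0.244 (adjusted p = 1.2e-05), in all 12 fits. FGF21, a hormone of the same FGF subfamily as FGF23 and a member of the ATF4 list, had 0.916, 0.732 and 0.915 CPM after FGF23 24 h and 0.0558, 0.123 and 0.18 CPM in the 24 h controls, against 0.0619, 0.135 and 0.118 CPM after FGF23 1 h and 0.245, 0.438 and 0.115 CPM in the 1 h controls. FGF21 had at most 0.438 CPM outside FGF23 24 h. It passed the expression filter (at least 0.558 CPM in 3 libraries) through the FGF23 24 h libraries alone, so its values are a description. FUT1 (chr19:48748011-48755390, minus strand) and FGF21 (chr19:48755559-48758333, plus strand) are divergent neighbours 169 bases apart. PAPPA2, which cleaves IGF-binding proteins, had 2.86, 2.55 and 2.29 CPM after FGF23 24 h and at most 0.404 CPM in any other library. It too passed the filter through that group alone. ADM2, a peptide hormone of the calcitonin family, had a difference of 2.49 ± 0.361 (adjusted p = 0.000942). CALCB, the beta form of calcitonin gene-related peptide, had one of 1.80 ± 0.362 (adjusted p = 0.0158, in 9 of the 12 fits) and PCSK1, a convertase of prohormones, of 1.66 ± 0.321 (adjusted p = 0.0124, in 8 of the 12 fits). JDP2, a repressor that pairs with JUN proteins, had a difference of 2.06 ± 0.319 (adjusted p = 0.00177), opposite in sign to JUN itself.

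The promoter windows were searched for 10 motifs on both strands. RefSeq windows were matched for 34 of the 55 genes whose difference was lower and whose effect at 1 h was higher, for 102 of the 138 whose difference and effect at 24 h were higher, and for 11417 of the 16920 genes tested. Each share of tested genes below is a share of these 11417 matched genes. A CArG box was found in 4 of the 34 (11.8%; ACTG1, EGR1, EGR2 and SRF), in 3 of the 102 (2.94%) and in 1.42% of all tested genes, and in 1.16% of the 35116 windows of the table. In the EGR1 window printed above the boxes lie 105 and 83 bases before the start, and in that of EGR2 the box lies 71 bases before it. The ATF4 composite site TGATGNAA was found in 1 of the 34 (2.94%), in 17 of the 102 (16.7%) and in 2.36% of tested genes, and in 3.14% of all windows. The 17 were AJUBA, ALPK2, BCAT1, CEBPG, CHAC1, DLGAP1-AS2, FGF21, FUT1, GPX8, HERPUD1, HRK, JDP2, MEF2C, MTHFD1L, PCSK1, SPRED2 and TRIM2. The longer site ATTGCATCA, which overlaps it, was in 5 of the 102 (4.9%), none of the 34 and 0.149% of tested genes (0.216% of all windows). In the printed FUT1 window it starts 119 bases before the start. The same 9 letters, at chr19:48755469-48755477, also lie 55 to 47 bases before the start of FGF21. This 1 site therefore counts for both FUT1 and FGF21 in the 17 and in the 5. FGF21 passed the expression filter through the FGF23 24 h libraries alone, so both shares rest in part on it. The AP-1 site was in none of the 34, in 11 of the 102 (10.8%) and in 4.13% of tested genes (4.2% of all windows). The CRE palindrome TGACGTCA was in 11.8%, 1.96% and 3.28% of the 3 sets in the same order (1.65% of all windows), and the ETS site CCGGAAGT in 2.94%, 2.94% and 7.62% (3.42%). The EGR site GCGNGGGCG was in 23.5% of both gene sets and in 17.9% of tested genes (8.41%), the TATA box TATAAA in 17.6%, 22.5% and 8.14% (10.7%), the E-box CACGTG in 11.8%, 14.7% and 11.2% (6.34%), and the short core TGACG, which the CRE contains, in 52.9%, 39.2% and 34.9% (21.2%). These are matches of letters in the given windows, with no test.

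The 32 genes with a lower difference that were called lower at 24 h and not called at 1 h included TMEM132B and NCKAP5, named by size alone. TMEM132B had effects of -1.26 ± 0.182 at 24 h and -0.16 ± 0.162 at 1 h, a difference of -1.10 ± 0.244 (adjusted p = 0.0307, in 3 of the 12 fits). NCKAP5 had a difference of -1.17 ± 0.231 (adjusted p = 0.0148, in 9 of the 12 fits). Sterol synthesis, the SREBP-driven pathway to cholesterol, gave 3 of 28 called lower with a median of -0.40. This count depended on the libraries and was 0 to 9 over the 12 fits, with 9 lower and 2 higher without library 1 of FGF23 1 h. LSS, lanosterol synthase, had 289, 259 and 264 CPM after FGF23 24 h and 380, 352 and 377 CPM in the 24 h controls, against 361, 273 and 290 CPM after FGF23 1 h and 272, 263 and 284 CPM in the 1 h controls. The 24 h controls were above the treated libraries of that time and above the 1 h controls. The difference was -0.62 ± 0.128 (adjusted p = 0.0198, in 6 of the 12 fits) and the change between controls 0.44 (adjusted p = 0.0176). MVD and NSDHL, of the same pathway, had differences of -0.83 and -0.58 (adjusted p = 0.0248 and 0.0427, in 5 and 3 of the 12 fits). In this list 7 genes were called higher in 24 h than in 1 h controls.

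The calls in other lists are also set beside the share over all genes tested, 0.881% higher and 0.573% lower. Of 14 heat shock genes, HSPA8 and DNAJB1, a constitutive HSP70 and its partner, were called lower at -0.72 and -0.60 (adjusted p = 0.0421 and 0.0486, in 3 and 2 of the 12 fits). Without library 1 of FGF23 1 h the list's count was 0. Of 23 hypoxia and glycolysis genes, PFKFB3 and BNIP3 were called lower and VEGFA higher (0.63 ± 0.151, adjusted p = 0.0478, in 3 of the 12 fits), against 3 lower and none higher without that library. ID2, an inhibitor of helix-loop-helix factors, was the 1 of 22 TGF-beta, BMP and matrix genes that edgeR called, at -0.63 (adjusted p = 0.0486, in 2 of the 12 fits). Without library 1 of FGF23 1 h this list gave other genes, 3 higher (TGFB1, FN1 and COL4A1) and 1 lower (ID4), and in limma voom 2 higher and 2 lower. PTGER4, a prostaglandin E receptor, was the 1 of 12 NF-kB and prostaglandin genes called, at -0.70 ± 0.126 (adjusted p = 0.00683, in all 12 fits). Of 13 genes of the IGF axis, PAPPA2 left aside, the insulin receptor substrate IRS1 was called higher (0.52 ± 0.125, adjusted p = 0.0486, in 3 of the 12 fits). Without library 1 of FGF23 1 h the whole list gave 3 higher, PAPPA2 included, and 2 lower. CCND2, a G1 cyclin, was the 1 of 12 G1 genes that edgeR called (0.51 ± 0.122, adjusted p = 0.0436, in 3 of the 12 fits). In this list limma voom also called GADD45B and CDKN1C lower, DESeq2 called 3 and the fit of 24 libraries 2 higher and 4 lower. SMN1 had 15.0, 17.3 and 22.5 CPM after FGF23 24 h and 41.2, 59.0 and 59.7 CPM in the 24 h controls, against 26.0, 19.8 and 29.3 CPM after FGF23 1 h and 14.9, 17.9 and 15.9 CPM in the 1 h controls. The 24 h controls were the high ones, by 1.71 over the 1 h controls (adjusted p = 0.00012). SMN1 lies in a duplicated region beside its near-identical copy SMN2, so its difference of -2.16 ± 0.241 is uncertain.

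Of 13 genes of the FGF23 receptor complex and its adaptors, edgeR called none, and the median was 0.02. Of these 13, 4 passed an unadjusted p under 0.05 in edgeR, 1 was called in DESeq2 and 1 in limma voom. Over all 16920 genes tested 2621 passed that unadjusted threshold, which is the background for this and the following lists. Leaving out 1 library at a time gave 0 to 1 higher and 0 to 2 lower. KL, read largely from the introduced construct, had 1770, 1845 and 1887 CPM after FGF23 24 h and 1001, 989 and 987 CPM in the 24 h controls, against 1814, 1751 and 2129 CPM after FGF23 1 h and 1189, 1207 and 1153 CPM in the 1 h controls. KL was above its controls at both times, by 0.89 ± 0.0749 at 24 h and 0.68 ± 0.0746 at 1 h, and the difference of 0.20 ± 0.105 was not called (adjusted p = 0.362). FGFR1 was called higher with FGF23 at 24 h, by 0.52 ± 0.0918, with a difference of 0.22 ± 0.13 (adjusted p = 0.421). It was called without library 1 of FGF23 1 h (0.33, adjusted p = 0.0469). FGFR3 had a difference of -0.50 ± 0.146 that edgeR did not call with the 12 libraries (adjusted p = 0.116). It was called in DESeq2 (-0.50, adjusted p = 0.0489), in limma voom (-0.48, adjusted p = 0.049), without library 2 of FGF23 1 h (-0.64, adjusted p = 0.00635) and with all 24 libraries (-0.50, adjusted p = 0.0107). Its level in the 24 h controls was 0.39 above that in the 1 h controls (adjusted p = 0.0453). FGFR2 and FGFR4 had differences of -0.13 and -0.34, with adjusted p of 0.59 and 0.279. Of 18 phosphate and vitamin D genes, the classical kidney targets of FGF23, 13 were tested. For the difference edgeR called none of the 13 and neither DESeq2 nor limma voom called any, against 3 at an unadjusted p under 0.05. The share called over all genes tested was 1.45%, so 0 calls in a list of this size does not set it apart. By the separate effects, 2 of the 13 were called higher and 1 lower with FGF23 at 24 h, and 1 higher at 1 h. For 18 S phase genes and 13 NRF2 genes the calls were likewise 0 with each of the 3 tools, against 2 and 3 at an unadjusted p under 0.05. Without library 1 of FGF23 1 h, 1 NRF2 gene was called higher. For 16 mitosis genes edgeR and limma voom called none, DESeq2 1, and 3 passed an unadjusted p under 0.05. This depended on library 1 of FGF23 1 h, without which MKI67 and CENPF were called higher, and the fit of 24 libraries called 3. For 6 glucose-sensing arrestin genes edgeR and limma voom called none, DESeq2 1, and 2 passed an unadjusted p under 0.05, with ARRDC4 called lower without library 1 of FGF23 1 h. TXNIP, an arrestin of glucose uptake, was called lower at 1 h, by -0.96 ± 0.162, was at -0.17 at 24 h, and its difference of 0.79 ± 0.229 was not called (adjusted p = 0.113, 0.00604 with the replicate number as a block and 0.0305 without library 2 of FGF23 1 h).

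The controls of the 24 h arm differed from those of the 1 h arm in 736 genes (4.35%), 387 higher and 349 lower. In the fit without library 1 of FGF23 1 h the count was 3124. The change between controls is a term of the difference of effects. Of the 246 genes with a called difference, 56 (22.8%) also had a called control change, and its part in the difference was not tested. Among the 89 genes chosen by the naming rule 17 had one, among them TRIB3, STC2, NUPR1, SMN1, LSS and FGFR3, as given above. Others were SIK1 (1.24, adjusted p = 0.016), SLC7A5 (0.74, adjusted p = 0.00129), VEGFA (0.56, adjusted p = 0.013), ACTG1 (0.46, adjusted p = 0.00508), MVD (0.46, adjusted p = 0.0458), DNAJB1 (0.44, adjusted p = 0.028) and SLC1A4 (0.29, adjusted p = 0.0351). By contrast, EGR1, FOS, ETV4, ETV1, CHAC1, PSAT1, SLC7A11 and FUT1 had a control change between -0.09 and 0.39, none called.

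In WT cells, which lack the introduced KL, the same difference was called in 0 of 17790 genes (0%) in a fit of all 24 libraries. Of the 17790, 350 passed an unadjusted p under 0.05 in edgeR. In that fit each gene has 1 spread over all groups, the more variable Kl libraries of FGF23 1 h included. DESeq2 and limma voom also called 0. The difference between the lines, late minus early in Kl minus late minus early in WT, was called in 139 genes (0.781%), of which 99 were higher in Kl (0.556%) and 40 lower (0.225%). Of the 246 genes called in Kl, 127 were also called in this comparison of the lines in the same direction. Without library 1 of FGF23 1 h the comparison of the lines called 296 genes, 196 higher and 100 lower. BTG2 had a Kl-minus-WT difference of -1.6 ± 0.116 (adjusted p = 4.68e-10), PSAT1 of 1.6 ± 0.13 (adjusted p = 4.18e-09), EGR1 of -3.11 ± 0.384 and FOS of -4.55 ± 0.608 (adjusted p = 5.34e-05 each), and ETV4 of 3.35 ± 0.637 (adjusted p = 0.00554). BTG2 in WT cells stood at 102, 93.3 and 99.2 CPM after FGF23 24 h and at 95.6, 90.9 and 99.6 CPM in the 24 h controls, against 95.1, 89.7 and 95.2 CPM after FGF23 1 h and 87.9, 89.1 and 90.1 CPM in the 1 h controls. Its treated and control libraries overlapped at both times. SPRY4 (1.23, adjusted p = 0.162) and CHAC1 (2.69 ± 0.924, adjusted p = 0.257) were not called between the lines.

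**Figure D4:**
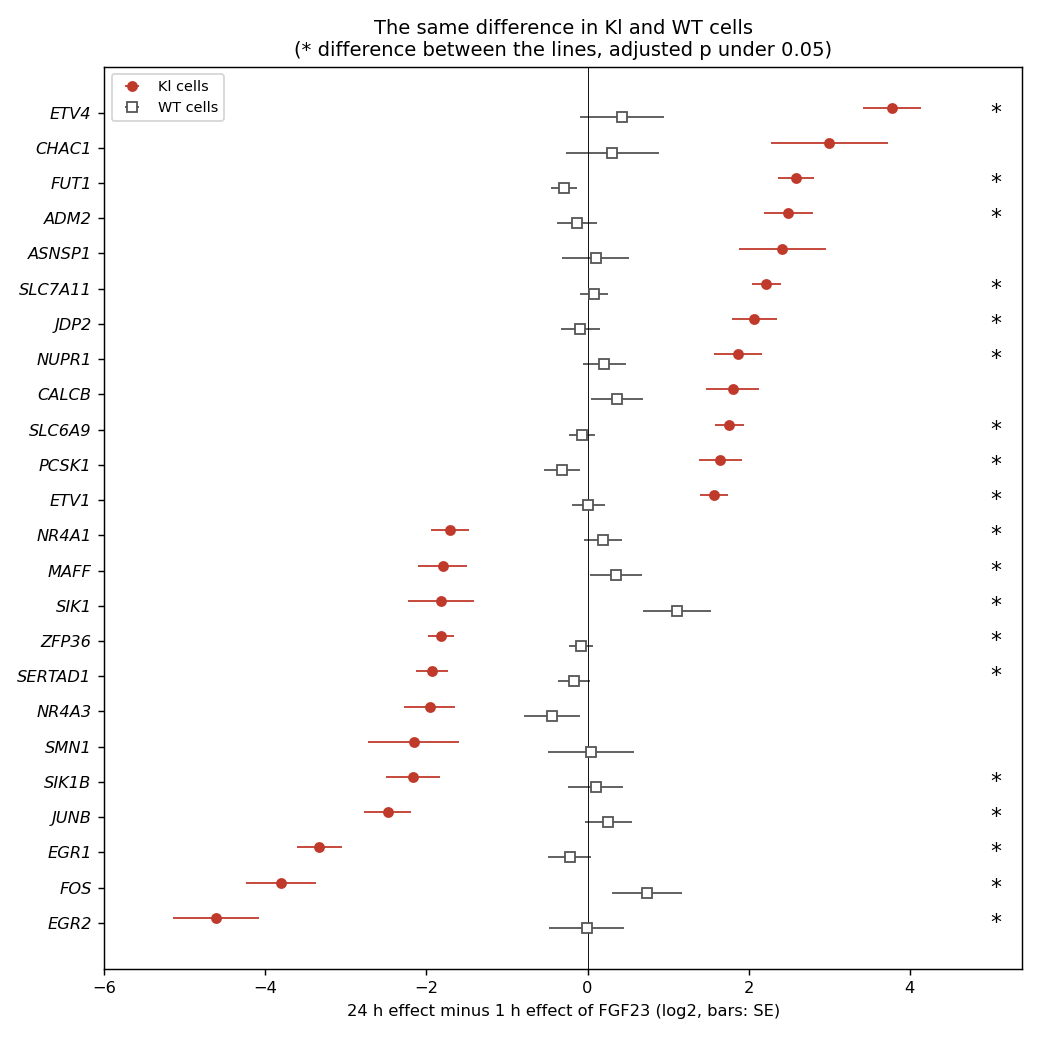
The late-minus-early difference (log2, x axis) of 24 genes in Kl cells (dots) and in WT cells (squares), both from the fit of all 24 libraries, with SE bars and an asterisk where the Kl-minus-WT adjusted p was under 0.05. EGR1 and FOS lie left of 0 in Kl cells and ETV4 and FUT1 right of it, each with an asterisk, and CHAC1 has a wide bar and none. The WT squares lie nearer 0 than the Kl dots for every gene drawn.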

How the data were processed

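The authors deposited, per the file headers, 1 table per line and time with raw counts per gene in 6 libraries, beside normalised values, FPKM and their own test, which were not used in any test (FPKM were tabulated only). Per the labels' protocols RNA was isolated on Nucleospin columns and an NEBNext Ultra kit was used for library preparation. Aligner, counter and strandedness are not given in the sources used here, and the submitters' processing notes name the build mm10, whereas the coordinates are those of human GRCh38. The deposited counts of the 2 Kl tables were joined by gene ID: 31249 genes were in either and 26551 in both, a gene missing from 1 was taken as 0, and such a gene had at most 11 counts. Genes passing filterByExpr were fitted in edgeR 4.0.16 (R 4.3.3) with TMM scaling and a robust quasi-likelihood model of 4 group means (residual degrees of freedom 8), and p-values were adjusted by Benjamini and Hochberg over all genes of a contrast. WT cells and the difference between lines came from a fit of all 24 libraries and 8 group means (17790 genes). CPM are counts scaled with the TMM factors. The standard error is the absolute log2 value divided by the square root of F. Alternatives were RLE factors, library size only, DESeq2 1.42.0, no filter, a filter asking for 1 CPM or more in 3 libraries, limma 3.58.1 voom with a spread for each group, all 24 libraries, the 6 libraries of a time, the replicate number as a block and each library left out in turn. The fits were also run on simulated counts, with changes placed in the FGF23 24 h libraries alone and no effect at 1 h. That run does not bear on calls that rest on effects at 1 h or on single libraries. Figures were drawn with matplotlib 3.10.9 and tables made with pandas 2.3.3 and numpy 2.4.6 in Python 3.11.15.

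Same-numbered treated and control libraries deviated together from their group means at 1 h, with correlations of 0.14 to 0.27, and not at 24 h, with -0.04 to 0.12. The numbers come from the sample titles, and the blocked count is given beside the 1 h count.

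The members, the 27 gene lists and the tests were chosen with earlier results of these data known. The naming rule takes the 12 highest and 12 lowest differences among genes called in both edgeR and voom with a mean CPM of at least 1, the 6 largest of each response shape, up to 4 called members of a list with the smallest p, and 13 fixed genes (CHAC1, TXNIP, ETV4, ETV5, EGR1, FOS, SPRY4, DUSP6, KL and the 4 FGF receptors). List members outside it, among them FOSB, FOSL1, PTGS2, DUSP4, SPRY2, SPRED1, CTGF, FGF21, DDIT3, PPP1R15A, ASNS, ALDH18A1, SLC7A3, SLC1A5, FARSA, AARS and HSPA5, were named after their values were seen. Promoter windows are from the RefSeq table of GRCh38.p14. Counts without genes that passed the expression filter through 1 group alone were added after the values were seen. One result is not reported here.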

Additional observations from a re-analysis of the deposited data

Results flagged for a closer look

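The effect of FGF23 in Kl cells differed between 24 h and 1 h, by a test of the difference itself, in 246 genes. The late-minus-early difference also differed between Kl and WT cells, again by its own test, in 139 genes. For BTG2, the FGF23 effect at 24 h was opposite in sign to that at 1 h, with both called, and the difference was -1.63. For SIK1B the effects were likewise opposite in sign, with a difference of -2.17, and its reads may be shared with SIK1. Their causes were not tested.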

How the results depend on the processing

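In Kl cells the count of called late-minus-early differences was 491 in DESeq2, 770 with no filter, 418 with the replicate number as a block across groups, 379 in voom and 1039 with all 24 libraries, and 100 to 813 over the fits leaving out 1 library. It was 363 with the replicate number as a block within each line and time. At 24 h the count was 971 with no filter, 2826 in voom, 1524 with all 24 libraries, 3128 with the 6 libraries of that time and 291 to 2043 over the fits leaving out 1 library. At 1 h it was 499 in DESeq2, 773 with no filter, 437 and 426 with the block across groups and within line and time, 165 in voom, 859 with all 24 libraries, 90 with the 6 libraries of that time and 111 to 1074 over those fits. The control change gave 1244 in DESeq2, 1225 with no filter, 1142 with the block across groups, 3432 in voom, 2293 with all 24 libraries and 28 to 3124 over those fits; it could not be fitted with the block within time. In WT cells no filter gave 5 calls and the leave-one-out fits 0 to 0. Between the lines DESeq2 gave 232, no filter 306 and the leave-one-out fits 102 to 392. The cause of these shifts was not tested. No named gene reversed its direction in the settings run. Of 89 named genes, voom moved 3 across the threshold, DESeq2 4, and the block within line and time 3, with DUSP6 and TXNIP newly called and SPRED2 lost (adjusted p = 0.073). Leaving out a control library of either arm or a library of FGF23 24 h lost 18 to 36 of the 89. Low counts limit FGF21, PAPPA2, EGR3 and FOSB.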

Other observations

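ATF4 and its targets SLC7A11 and CHAC1, named here after their values were seen, stood at other levels in the 24 h arm than in the 1 h arm of WT cells, treated or not. In WT cells ATF4 stood at 496, 481 and 511 CPM after FGF23 24 h and at 487, 505 and 472 CPM in the 24 h controls, against 335, 321 and 419 CPM after FGF23 1 h and 327, 316 and 423 CPM in the 1 h controls. The treated and control libraries overlapped at both times, and the 24 h libraries were above the 1 h ones. SLC7A11 in WT cells stood at 47.9, 49.5 and 46.7 CPM after FGF23 24 h and at 53.9, 51.9 and 48.4 CPM in the 24 h controls, against 19.2, 16.4 and 16.1 CPM after FGF23 1 h and 17.3, 18.3 and 23.5 CPM in the 1 h controls. CHAC1 in WT cells stood at 13.2, 13.6 and 14.4 CPM after FGF23 24 h and at 13.8, 14.1 and 12.5 CPM in the 24 h controls, against 2.66, 3.51 and 9.56 CPM after FGF23 1 h and 4.12, 3.63 and 13.0 CPM in the 1 h controls. The 24 h libraries of SLC7A11 were above the 1 h ones, whereas those of CHAC1 were above 5 of the 6 and overlapped the third control at 1 h. The third WT libraries at 1 h, treated and control, were both high for CHAC1. In Kl controls the change from 1 h to 24 h was 0.09 for ATF4, 0.19 for SLC7A11 and 0.39 for CHAC1 on the log2 scale, none called. The difference between the lines in this control change was not tested.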
